A study of Mus musculus with 16 samples.

Results

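The nuclear genes for the machinery of mitochondrial oxidative phosphorylation were followed in the colon of mouse pups at weaning, born by C-section (CSD) or by vaginal delivery (VD). A gene was a member when its name on the array began with Nduf, Uqcr, Atp5, Cox4, Cox5, Cox6, Cox7 or Cox8, or was Sdha, Sdhb, Sdhc, Sdhd or Cyc1. This rule reads names alone and gave 95 members of the 36870 gene names on the array, and all 95 passed the filter on dim probes that left 36711 genes for testing. They were grouped by complex as 36 subunits of complex I, 4 of complex II, 9 of complex III, 19 of complex IV, 15 of complex V, 10 assembly factors whose names match the rule, and 2 other genes, Atp5s and the pseudogene Atp5c1-ps.

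Oxidative phosphorylation takes electrons from NADH (complex I) and succinate (complex II), passes them through ubiquinone, complex III and cytochrome c to complex IV, where oxygen is reduced, and uses the resulting proton gradient to make ATP in complex V. A few core subunits are encoded by the mitochondrial genome and the rest by nuclear genes, so the complexes are built from parts of both origins. In the colon, the epithelial cells are known to rely on this pathway to oxidise butyrate, a fatty acid made by gut bacteria. Several complex IV subunits have a broadly expressed isoform and an isoform typical of muscle, fat, lung or testis.

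The arrays measured total RNA of whole colon from 16 outbred RjOrl:SWISS pups, 8 CSD and 8 VD, with no treatment named in the labels other than the mode of delivery. CSD pups were delivered surgically and raised by foster mothers, and VD litters were exchanged between mothers after birth, so both groups were reared by a female that was not their own mother. The CSD pups came from mother 3 (4 pups) and mother 4 (4 pups), each with 2 females and 2 males, and the VD pups from mother 5 (2 females and 3 males) and mother 6 (3 males). Delivery mode therefore differed between litters and never within one, and 2 litters per mode limit what the comparison can show. Each of the 2 slides carried 4 CSD and 4 VD arrays. Values are normalized log2 intensities, and a difference of 1 on this scale is a doubling. Between 58.7% and 64.9% of the spots of an array were well above background, the lowest share being that of VD pup 11, and no spot was saturated. In whole tissue, fewer cells of a type and less RNA per cell cannot be told apart.

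Colon epithelium markers were well above background on every array for all 13 genes of the list, and smooth muscle markers for all 9. The sample is a mixture of layers, so the marker levels of its layers and of other tissues are given below.

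The array reads each gene through 60-base probes. The probes of 2 members and of ND6, a mitochondrially encoded complex I subunit described below, are shown because the results turn on them or because they mark a tissue isoform. The Ndufaf4 probe lies at chr4:24830285-24830344, the Cox7a1 probe spans chr7:30970337-30970948 across a splice junction, and the ND6 probe lies on the minus strand at chrM:13552-13611 (all mm9), each in the transcript of the named gene.
Ndufaf4: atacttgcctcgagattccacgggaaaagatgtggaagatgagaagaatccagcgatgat
Cox7a1: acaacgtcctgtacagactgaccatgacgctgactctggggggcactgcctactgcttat
ND6: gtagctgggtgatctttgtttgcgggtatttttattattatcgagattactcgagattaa

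The members' promoters, which the rule did not use, had a base composition unlike that of most genes. RefSeq promoter sequences (GRCm38.p6) were found for 77 of the 95 members, and the 250 bases before the transcription start were read. The median ratio of observed to expected CG dinucleotides was 0.787 over the members and 0.378 over the promoters of 27025 genes, and the ratio was under 0.6 in 23.4% of the members against 65.5% of all promoters. The ratio was higher in the broadly expressed isoform for subunits 6b (0.768 in Cox6b1, 0.430 in Cox6b2), 7a (0.751 in Cox7a2, 0.244 in Cox7a1) and 8 (0.676 in Cox8a, 0.0726 in Cox8b), and lower for subunit 7b (0.431 in Cox7b, 0.567 in Cox7b2). The 100 bases before the start are shown for the broadly expressed Cox7a2 (chr9:79759854-79759953, minus strand) and Cox8a (chr19:7217617-7217716, minus strand) and for the muscle-type Cox7a1 (chr7:30184071-30184170, plus strand) and Cox8b (chr7:140900447-140900546, minus strand), with each CG in capitals.
Cox7a2: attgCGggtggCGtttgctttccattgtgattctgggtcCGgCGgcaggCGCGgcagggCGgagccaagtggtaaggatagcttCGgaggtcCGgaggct
Cox8a: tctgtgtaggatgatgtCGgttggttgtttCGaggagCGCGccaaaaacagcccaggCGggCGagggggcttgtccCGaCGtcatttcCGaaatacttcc
Cox7a1: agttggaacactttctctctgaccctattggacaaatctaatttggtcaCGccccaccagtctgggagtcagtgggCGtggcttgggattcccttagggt
Cox8b: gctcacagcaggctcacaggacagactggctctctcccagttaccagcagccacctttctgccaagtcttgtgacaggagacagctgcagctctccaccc

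Cox7a2 and Cox8a each held 9 CG dinucleotides in this stretch, Cox7a1 held 2 and Cox8b held 0. The spread between pups was close in members with few and with many CG. The median SD over the 16 pups was 0.0813 for the 18 members with a ratio under 0.6 and 0.0838 for the other 59.

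Letters typical of the sites of nuclear respiratory factor 1 (NRF1) and of ETS factors such as GABP, both known regulators of these genes, were searched on both strands of the 250 bases. The NRF1 core GCGCATGC was present in 9 of 77 members (11.7%) and in 2.56% of all promoters. The ETS core CCGGAAG was present in 14 of 77 members (18.2%) and in 7.83% of all promoters, and AAGATGG, the core bound by YY1, in 2 of 77 (2.6%) and in 5.18% of all promoters. Such a match is a description of the letters and does not show binding. The NRF1 and ETS cores each hold a CG and AAGATGG holds none, and the members' promoters had a higher CG ratio than most. The part of base composition in these shares was not tested. Ndufa8 and Ndufaf4, described below, were among the members with the NRF1 core, and 60 bases around it are shown with the core in capitals, at chr2:36049339-36049398 (minus strand) and chr4:24897946-24898005 (plus strand). In Ndufaf4 the core is overlapped by its own reverse complement.
Ndufa8: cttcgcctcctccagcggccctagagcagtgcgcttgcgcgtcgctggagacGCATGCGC
Ndufaf4: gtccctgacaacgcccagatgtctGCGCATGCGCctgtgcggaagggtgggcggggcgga

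Almost the whole machinery was detected. Of the 95 members, 93 were well above background on all 16 arrays. The exceptions were Cox6a2, the heart and skeletal muscle isoform of subunit 6a, on 13 arrays, and Cox8c, a testis isoform of subunit 8, on 0 arrays. In each pair of isoforms the broadly expressed form (Cox4i1, Cox6a1, Cox6b1, Cox7a2, Cox8a and Ndufa4) was above background in every pup, but so were Cox4i2, known from lung and low oxygen, Cox6b2, a testis isoform, the muscle isoforms Cox7a1 and Cox8b, and Ndufa4l2, a gene known to be induced by low oxygen. Levels of different isoforms were not set against each other, since probes differ in brightness.

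Levels of the members varied little from pup to pup. The median SD over the 16 pups was 0.0827 over the members, 0.120 over the 20601 genes above background on every array and 0.0975 over the 1298 other genes that were at least as bright as the median member. It was under 0.1 for 69 members and over 0.25 for 4. A member's value averages its probes, and for 4 members (Atp5d, Ndufa7, Ndufaf5 and Uqcrfs1) this took in a probe that was above background on no array. With probes well above background alone, the median SD was 0.0838 over 93 members. The lowest SDs of the averaged values were those of Atp5d, the delta subunit of the F1 motor, with 0.0399, and Atp5g2, one of the genes for the c-ring of complex V, with 0.0461. The Atp5d value is the average of a probe above background on all 16 arrays, which had an SD of 0.0571, and of 1 of the background probes. Atp5g2 ran from 16.14 to 16.29 in CSD pups and from 16.15 to 16.25 in VD pups, so the groups overlapped throughout.

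The first comparison asked whether delivery mode changed the expression of this machinery, with sex in the model and litter as a random effect. None of the 95 members passed an adjusted p-value of 0.05 in limma, where 464 of all 36711 genes did (1.26%). At an unadjusted p under 0.05 there were 11 members (11.6%), 8 higher and 3 lower in CSD, against 5321 genes (14.5%) of the whole array. The median log2 fold change was 0.018 over the members and 0.0028 over all genes, and 61 of the 95 members (64.2%) were on the higher side in CSD against 51.7% of all genes.

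The intervals give the size of difference that the fitted model still allows. That model took littermates as almost independent (consensus correlation 0.0152), so the intervals take little account of the small number of litters. For 91 of the 95 members the 95% interval of the difference, taken gene by gene, lay within a 1.25-fold change in either direction, against 84.2% of all genes tested. The 4 members with wider intervals were Cox7b2, Cox6a2, Cox8b and Cox7b, all of complex IV. The median SE was 0.0431 on the log2 scale. No adjusted p below 0.169 was reached by any member, which does not show that the groups are equal. With the brightest probe per gene the smallest was 0.0908 (Uqcrfs1) and with probes well above background alone 0.0936 (Ndufa4l2), and the intervals then lay within a 1.25-fold change for 89 of 95 and for 88 of 93 members. Single differences rested on few pups and litters. Of the 35 members described here, 18 had a difference that moved by over 1.5 times when some pup was left out, and 28 when some litter was. These counts take in members with a difference near 0, which pass that ratio with a small move. Atp5d, for one, ran from -0.0122 to 0.0094 over the fits without a pup.

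**Figure D1:**
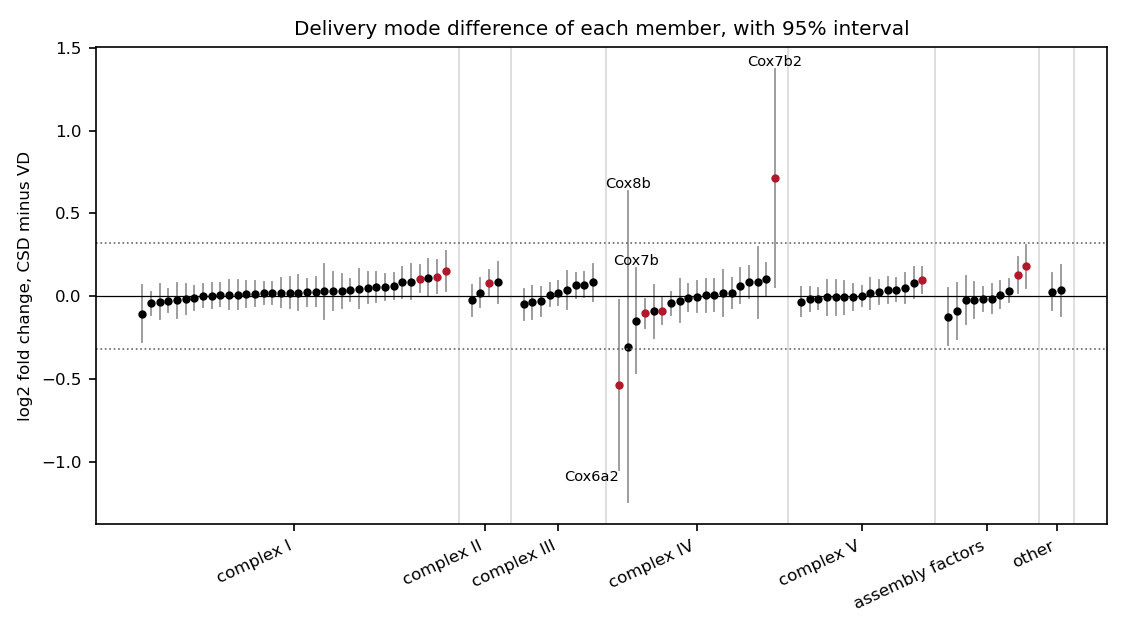
Log2 fold change between CSD and VD pups (CSD minus VD, vertical axis) of each of the 95 members, ordered by size within its group on the horizontal axis; lines are 95% intervals, red points have an unadjusted p under 0.05, and dotted lines mark a 1.25-fold change. All points but those of Cox7b2 and Cox6a2 lie between the dotted lines, and the 4 named members have intervals that cross them.

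In complex I, which oxidises NADH, 0 of 36 subunits were called and the median difference was 0.0216. In the fit 29 were on the higher side in CSD (80.6%, against 51.7% of all genes), but all were read in the same pups. The median deviation of these genes from their 16-pup means averaged 0.0431 for mother 3 and -0.0074 for mother 4 (CSD). It averaged -0.02 for mother 5 and -0.0118 for mother 6 (VD). Ndufs1, the large iron-sulphur subunit at the entry of the electron path, ran from 10.42 to 10.73 in CSD pups (median 10.63) and from 10.42 to 10.59 in VD pups (median 10.46). Of the 8 CSD pups, 6 were above the highest VD pup and CSD pup 9 was among the lowest of all. The difference was 0.11 with an SE of 0.0378 (adjusted p = 0.186, limma), and 0.04 with the brightest probe alone. Ndufa8, an accessory subunit, ran from 12.97 to 13.24 in CSD pups and from 12.89 to 13.25 in VD pups, the highest value being that of VD pup 7. Its difference was 0.15 with an SE of 0.0569 (adjusted p = 0.203, limma), 0.0563 without the litter of mother 5 and 0.096 in males alone. Ndufab1, the mitochondrial acyl carrier protein, differed by 0.12 with an SE of 0.0465 (adjusted p = 0.237) and by 0.07 with the brightest probe alone, and 6 of 8 CSD pups were above the highest VD pup.

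In complex II, the succinate dehydrogenase that also belongs to the tricarboxylic acid cycle, 0 of 4 genes were called. Sdhc, a membrane anchor, ran from 12.52 to 12.74 in CSD pups (median 12.65) and from 12.48 to 12.64 in VD pups (median 12.53). The groups overlapped, with 4 CSD pups above the highest VD pup, and the difference was 0.08 (95% interval 0.0042 to 0.156, adjusted p = 0.312, limma). The Sdhc difference was -0.0143 with the pups of mother 5 left out and 0.0248 in males alone. Sdha, the flavoprotein, differed by 0.083 with an SE of 0.0578, by 0.0498 without CSD pup 1 and by 0.004 without the litter of mother 5, and Sdhb, the iron-sulphur subunit, by -0.026 with an SE of 0.0450.

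In complex III, which passes electrons from ubiquinol to cytochrome c, 0 of 9 genes were called and 0 reached an unadjusted p under 0.05. The smallest p-values were those of Uqcrfs1, the Rieske iron-sulphur protein, with a difference of 0.07 (95% interval -0.0046 to 0.145), Uqcrc2, a core protein, with 0.067 (95% interval -0.0088 to 0.142), and Uqcrh, the hinge protein, with 0.084 (95% interval -0.0281 to 0.196). The Uqcrh difference was 0.0068 on slide 1 and 0.16 on slide 2, and 0.0279 with the pups of mother 6 left out. With the pups of mother 5 left out, Uqcrfs1 was -0.0048 and Uqcrc2 -0.0084. Of the 2 Uqcrfs1 probes averaged, 1 was above background on no array. With the other probe alone the difference was 0.16 (95% interval 0.0676 to 0.262, adjusted p = 0.0908, limma), so that the statement on unadjusted p-values holds for the averaged values only.

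In complex V, the ATP synthase, 0 of 15 genes were called and the median difference was 0 to 2 decimals. Atp5g1, another gene for the c-ring, ran from 14.21 to 14.39 in CSD pups (median 14.30) and from 14.11 to 14.29 in VD pups (median 14.25). All but 1 of the 8 CSD pups were above the highest VD pup, the lowest of these by too little to show in 2 decimals. The difference was 0.10 with an SE of 0.0370 (adjusted p = 0.224). The other c-ring genes had a difference of 0.04 (SE 0.0328) for Atp5g3 and -0.02 (SE 0.0293) for Atp5g2. Atp5g2 was 0.0117 without the litter of mother 4 and 0.0603 with scanner-corrected intensities scaled by the 75th percentile. The 2 Atp5g3 probes were above background on all arrays and had mean differences of 0.131 and -0.0355, and the brighter of them gave 0.13 in the model (SE 0.0354, adjusted p = 0.0951, limma). Atp5j2, a subunit of the membrane part, differed by 0.082 with an SE of 0.0441, and by 0.01 with the brightest probe alone.

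Complex IV, cytochrome c oxidase, was the group with the widest range, from -0.54 to 0.71, with 0 of 19 genes called and a median difference of -0.0023. There were 4 members with an unadjusted p under 0.05 (21.1%, against 14.5% of all genes), namely Ndufa4l2, Cox4i2, Cox6a2 and Cox7b2. Ndufa4l2 ran from 7.23 to 7.52 in CSD pups and from 7.36 to 7.66 in VD pups, and 5 CSD pups were below the lowest VD pup (difference -0.10, SE 0.0426, adjusted p = 0.255). Of its 2 probes, 1 was above background on 1 array, and with the other alone the difference was -0.23 (SE 0.0645, adjusted p = 0.0970, limma). Cox4i2 differed by -0.09 with an SE of 0.0374 (adjusted p = 0.256). Cox6a2 ran from 6.20 to 7.27 in CSD pups and from 6.33 to 8.14 in VD pups and was well above background on 6 CSD and 7 VD arrays, so its difference of -0.54 (SE 0.242, adjusted p = 0.321) compares values of which some are near background. It was -0.08 on slide 1, -1.01 on slide 2 and -0.93 in the deposited gene matrix. Of the broadly expressed forms, Cox7b, described below, differed by -0.15 (95% interval -0.467 to 0.171), Cox6b1 by 0.10 (95% interval from 0.00 to 0.203, adjusted p = 0.345) and Ndufa4 by 0.08 (95% interval -0.0129 to 0.180, adjusted p = 0.427), for which 4 CSD pups were above the highest VD pup. With the pups of mother 5 left out, Cox7b turned to 0.0743 and Ndufa4 to -0.0159, and Cox7b was -0.0671 without VD pup 9. Cox6b1 was 0.0549 with the pups of mother 3 left out. Cox4i1 differed by -0.04 (95% interval -0.112 to 0.0267) and Cox6a1 by 0.01 (95% interval -0.0961 to 0.107). Cox4i1 was 0.0377 with scanner-corrected intensities scaled by the 75th percentile and 0.0041 without the litter of mother 5. Cox6a1 ran from -0.0551 without the litter of mother 3 to 0.0943 without that of mother 5. Cox8a and Cox7a2 had intervals from -0.0894 to 0.0732 and from -0.0938 to 0.0892. Without 1 litter their differences ran from -0.0458 to 0.0314 and from -0.0785 to 0.0696. Of the tissue isoforms, Cox7a1 differed by 0.08 (95% interval -0.130 to 0.299) and Cox6b2 by -0.09 (95% interval -0.251 to 0.0670). Cox7a1 was -0.0554 on slide 1 and 0.218 on slide 2, and -0.0581 with the pups of mother 3 left out. Cox6b2 was -0.0459 without CSD pup 7.

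Cox7b2, an isoform of subunit 7b known from testis, was the member with the largest difference between the groups. It ran from 9.44 to 11.48 in CSD pups (median 10.66) and from 8.32 to 10.78 in VD pups (median 9.68), with 2 CSD pups above the highest VD pup. The difference was 0.71 with an SE of 0.311 (adjusted p = 0.297). The litter means were 10.41 and 10.61 for mothers 3 and 4 (CSD), 9.27 for mother 5 and 10.21 for mother 6 (VD), so the VD litters lay further apart than the CSD litters. Without the litter of mother 5 the difference was -0.13, and without that of mother 6 it was 1.15 (adjusted p = 0.00686).

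Among assembly factors, 0 of 10 were called. Ndufaf4, a factor that helps to join the arms of complex I, had the smallest p of all members in this fit. It ran from 10.69 to 11.001 in CSD pups (median 10.80) and from 10.43 to 10.84 in VD pups (median 10.66), and 3 CSD pups were above the highest VD pup. The difference was 0.18 with an SE of 0.0623 (adjusted p = 0.169). Ndufaf2 differed by 0.13 with an SE of 0.0512 (adjusted p = 0.244) and Ndufaf1 by -0.12 with an SE of 0.0802. The Ndufaf2 difference was 0.0356 on slide 1 and 0.22 on slide 2, 0.070 with the pups of mother 6 left out and 0.24 with those of mother 5 left out. The Ndufaf1 difference was -0.0462 without CSD pup 8, -0.0173 with the pups of mother 3 left out and -0.217 with those of mother 4 left out. The other genes, Atp5s, known as coupling factor B, and Atp5c1-ps, differed by 0.04 (SE 0.0724) and 0.03 (SE 0.0525).

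The median difference of the members was 0.0255 on slide 1 and -0.0032 on slide 2 when each was fitted alone, and 0.018 with slide in the model, with 0 members called in each of these fits. Of all genes, slide 1 alone called 11 and slide 2 alone 0.

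The levels of the complexes varied more between pups than between delivery modes. Each pup was given the median deviation of a complex's genes from their 16-pup means. Over all members it was 0.010 ± 0.0414 in CSD pups and -0.017 ± 0.0380 in VD pups (SD, n = 8 each), so the groups differed by less than the spread among pups. The values ran from -0.0699 in VD pup 6 to 0.0566 in CSD pup 8. CSD pups 3, 5 and 8 and VD pup 7 were above 0.05, and 3 of these 4 pups belong to mother 3. VD pup 6 had the lowest median deviation in complexes I, II, IV and V, but the highest mean level of the complex IV genes, at 12.81. Of the marker lists described below, this pup was the lowest for colon epithelium (-0.186). It was the highest for adipose tissue (1.94) and immune cells (0.467).

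**Figure D2:**
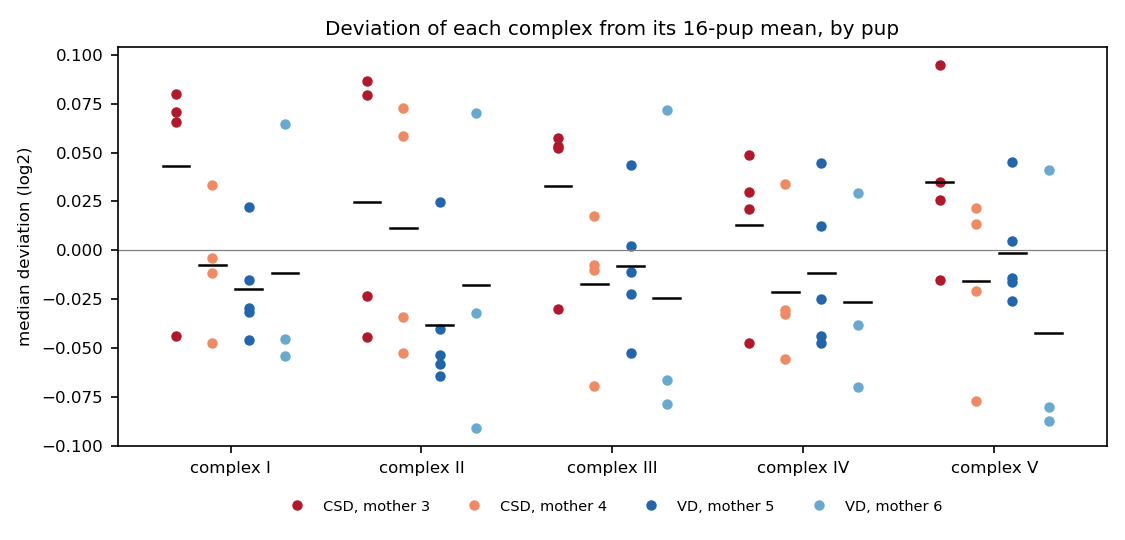
Median deviation of the genes of each complex from their 16-pup means (log2, vertical axis) in each pup, coloured by litter, with black bars for litter means. Over all complexes the points run from -0.0911 to 0.0947, and in every complex the points of CSD and VD litters overlap.

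The genes around the nuclear-encoded subunits were read from lists chosen by name. Of the 11 mitochondrially encoded subunits on the array, 1 was called (9.09%, against 1.26% of all genes), ND6, a complex I subunit and the one protein gene on the light strand of the mitochondrial DNA. Its probe gave 9.44 to 10.08 in CSD pups (median 9.74) and 9.15 to 9.51 in VD pups (median 9.29). Of the CSD pups, 6 were above the highest VD pup and CSD pups 2 and 8 lay within the VD range. The difference was 0.39 with an SE of 0.0866 (adjusted p = 0.0412, limma). The litter means were 9.80 and 9.68 in CSD and 9.36 and 9.27 in VD. Leaving out a single pup ended the call for 12 of the 16 pups, namely CSD pups 1, 3, 5, 6, 7 and 9 and VD pups 4, 5, 6, 8, 10 and 11, with differences of 0.345 to 0.413 in those fits. Over all 38 settings, pups and litters left out included, ND6 was called in 14. Its adjusted p was 0.0687 in the deposited gene matrix and 0.254 with litter means as samples (limma). With scanner-corrected intensities it was 0.0795 (quantile) and 0.0805 (75th percentile). Fitted alone, slide 1 gave a difference of 0.32 and slide 2 gave 0.455. The median of the 11 genes was -0.049, 9 of them were on the lower side in CSD, and COX2, ND2 and ND4 had differences of -0.08, -0.09 and -0.08 with unadjusted p under 0.05 (adjusted p = 0.260, 0.269 and 0.324). ND6 rests on a single probe.

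**Figure D3:**
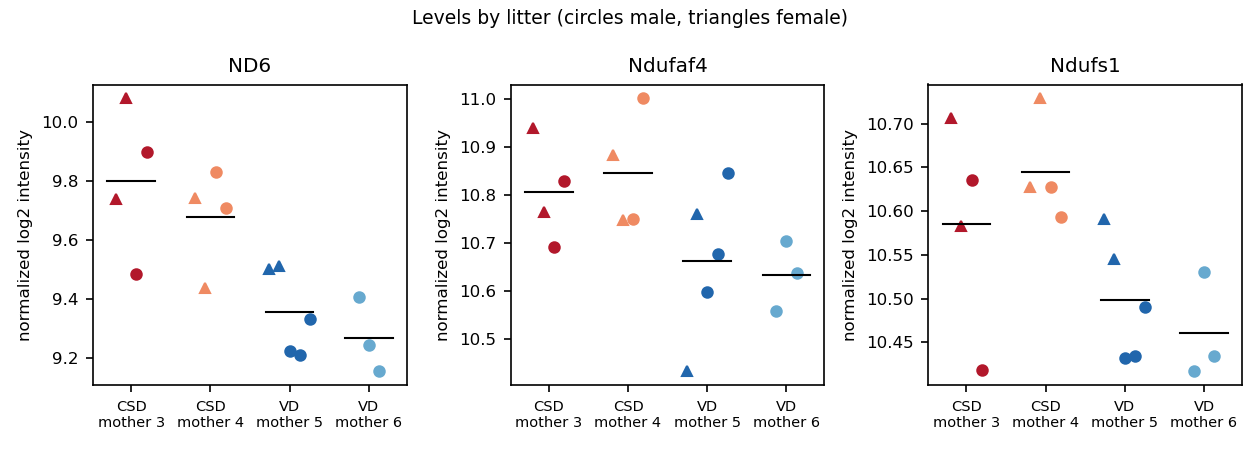
Normalized log2 intensity (vertical axes) of ND6, Ndufaf4 and Ndufs1 in each pup, by litter, with circles for males, triangles for females and bars for litter means. For ND6 the VD points end at 9.51 and 6 CSD points lie above them; for Ndufs1 6 CSD points and for Ndufaf4 3 CSD points lie above the highest VD point.

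Of the 78 mitochondrial ribosomal protein genes, which make the mitochondrially encoded subunits, 3 were called (3.85%, against 1.26% of all genes), all higher in CSD. They were Mrpl21 (0.16, SE 0.0339, adjusted p = 0.0332), Mrpl50 (0.21, SE 0.0467, adjusted p = 0.0388) and Mrpl9 (0.16, SE 0.0362, adjusted p = 0.0444), all of the large subunit. For Mrpl21 the 8 CSD pups ran from 11.99 to 12.15 and the 8 VD pups from 11.80 to 11.96, without overlap. The groups were likewise apart for 180 of all 36711 genes, for 2 of the 78 in this list and for 0 of the 95 members. Leaving out a single pup ended the call for 9 of 16 pups for Mrpl21, 10 for Mrpl50 and 14 for Mrpl9. Over all 38 settings, pups and litters left out included, Mrpl21 was called in 16, Mrpl50 in 14 and Mrpl9 in 9, and in the deposited gene matrix their adjusted p-values were 0.128, 0.0976 and 0.226. Without the litter of mother 5 the difference of Mrpl50 was 0.0926. The median of the list was 0.0417 and 56 of the 78 (71.8%) were on the higher side in CSD, against 51.7% of all genes.

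No gene was called in the other lists of energy metabolism. Over 41 further assembly factors the median was 0.0197, and Sdhaf1, which helps to insert iron-sulphur clusters into Sdhb, had the smallest p (difference -0.21, SE 0.0584, adjusted p = 0.0937). Tmem70, an assembly factor of complex V, differed by 0.11. Over 14 genes for cytochrome c, the ATPase inhibitor and inner and outer membrane carriers the median was 0.0123, with 0.14 for Cycs, the somatic cytochrome c, and 0.09 for the porin Vdac1. Cycs was 0.0713 with the brightest probe alone. Over 18 genes of the tricarboxylic acid cycle and pyruvate dehydrogenase the median was 0.0248, with 0.21 for fumarase, Fh1 (adjusted p = 0.115, limma), and 0.12 for Suclg2. Without the litter of mother 5 Fh1 was 0.0939 and Suclg2 0.0441, and Suclg2 was 0.0244 with the brightest probe alone. Over 14 glycolytic genes the median was -0.0678, with -0.23 for Pfkm (adjusted p = 0.0597) and -0.12 for Aldoa. Over 19 regulators of mitochondrial biogenesis the median was 0.0525 and 16 were on the higher side in CSD. The smallest p-values there were those of Yy1 (0.13, adjusted p = 0.0561) and Gabpa (0.12, adjusted p = 0.0681), an ETS factor. Of the 38 settings, Yy1 was called in 5 and Pfkm in 6.

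No marker of the layers of the colon was called. The median difference was 0.17 over 13 epithelial markers, with 0.45 for the chloride exchanger Slc26a3 (adjusted p = 0.113) and 0.17 for Epcam. It was -0.13 over 9 smooth muscle markers, with -0.19 for Smtn and -0.17 for Acta2. Without VD pup 5 these were -0.125 and -0.0882, and Acta2 was -0.0162 without the litter of mother 5. The median was -0.0735 over 9 striated muscle markers, of which 5 were above background on every array. Among them Acta1 differed by -0.23 and Myh7 by 0.09, and Myh7 ran from 0.0695 to 0.353 over other settings. Over 7 immune cell markers the median was -0.24, with -0.48 for Cd79a, a part of the B cell receptor (adjusted p = 0.0987, limma). Cd79a was -0.254 without the litter of mother 5. The mean level of the epithelial markers was 14.57 ± 0.153 in CSD and 14.40 ± 0.111 in VD pups, and that of the smooth muscle markers 12.41 ± 0.184 and 12.55 ± 0.166 (SD, n = 8 each). The part of tissue composition in the members' differences was not tested.

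Cox8b, the isoform of subunit 8 found in heart, skeletal muscle and brown fat, varied most, with an SD of 0.870 over the 16 pups. It ran from 7.42 to 9.61 in CSD pups (median 7.94) and from 7.82 to 10.27 in VD pups (median 8.02). VD pup 6 at 10.27, VD pup 5 at 9.63, CSD pup 7 at 9.61 and CSD pup 6 at 9.18 stood above the other pups, of which the highest was VD pup 4 at 8.30. The difference between the groups was -0.30 with a 95% interval from -1.25 to 0.636. It ran from -0.885 without the litter of mother 4 to 0.175 without that of mother 3, and was 0.169 in males alone and 0.0035 without VD pup 5. Its probe lies at chr7:148084852-148084911 (mm9).

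The same 4 pups had the 4 highest mean levels of 7 adipose tissue markers, 10.44 in VD pup 6, 10.14 in CSD pup 7, 9.52 in CSD pup 6 and 9.39 in VD pup 5, where the other 12 pups lay between 7.43 and 8.95. Of the list, Adipoq, Cidea, Cidec, Fabp4, Lep and Plin1 were well above background on every array. Ucp1, the uncoupling protein of brown fat, was so on 4 arrays, with 9.54 in VD pup 6, 8.26 in CSD pup 7, 7.76 in CSD pup 6 and 7.05 in VD pup 5 and no more than 6.28 elsewhere. Fabp4, a fatty acid carrier, ran from 10.32 in CSD pup 1 to 13.23 in VD pup 6, and Lep from 7.85 to 8.12. The median difference of the list between delivery modes was -0.0843. The part of adipose tissue in the Cox8b level was not tested.

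**Figure D4:**
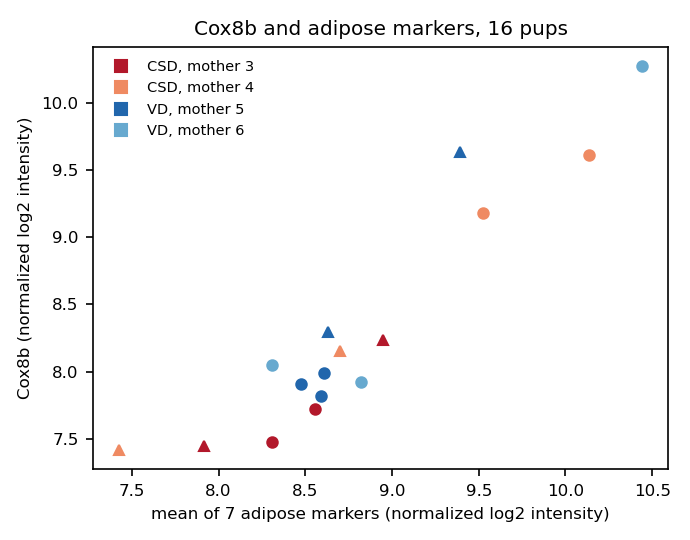
Normalized log2 intensity of Cox8b (vertical axis) against the mean of 7 adipose tissue markers (horizontal axis) in each of the 16 pups, coloured by litter, with circles for males and triangles for females. The 4 pups with Cox8b above 9 are also the 4 with marker means above 9, and they come from the litters of mothers 4, 5 and 6.

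A further pair of members, chosen after their values were seen, fell into separate levels. Cox7b, the broadly expressed subunit 7b on the X chromosome, gave 16.44 in VD pup 9 and 16.35 in VD pup 11, both males of mother 5 hybridised on different slides, and between 15.40 and 15.70 in the other 14 pups. Its single probe lies at chrX:103217214-103217271 (mm9). Ndufv3, an accessory complex I subunit, was lower in the 3 pups of mother 6, at 11.07 to 11.24, and in the females CSD pup 3 and CSD pup 5, at 11.12 and 11.16, than in the other 11 pups, at 11.37 to 11.56. Of its 2 probes, the one at chr17:31668209-31668268 (mm9) gave 14.81 to 14.93 in those 5 pups and 15.30 to 15.54 in the other 11. The one at chr17:31663758-31663817 ran from 7.34 to 7.58 with no such gap.

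**Figure D5:**
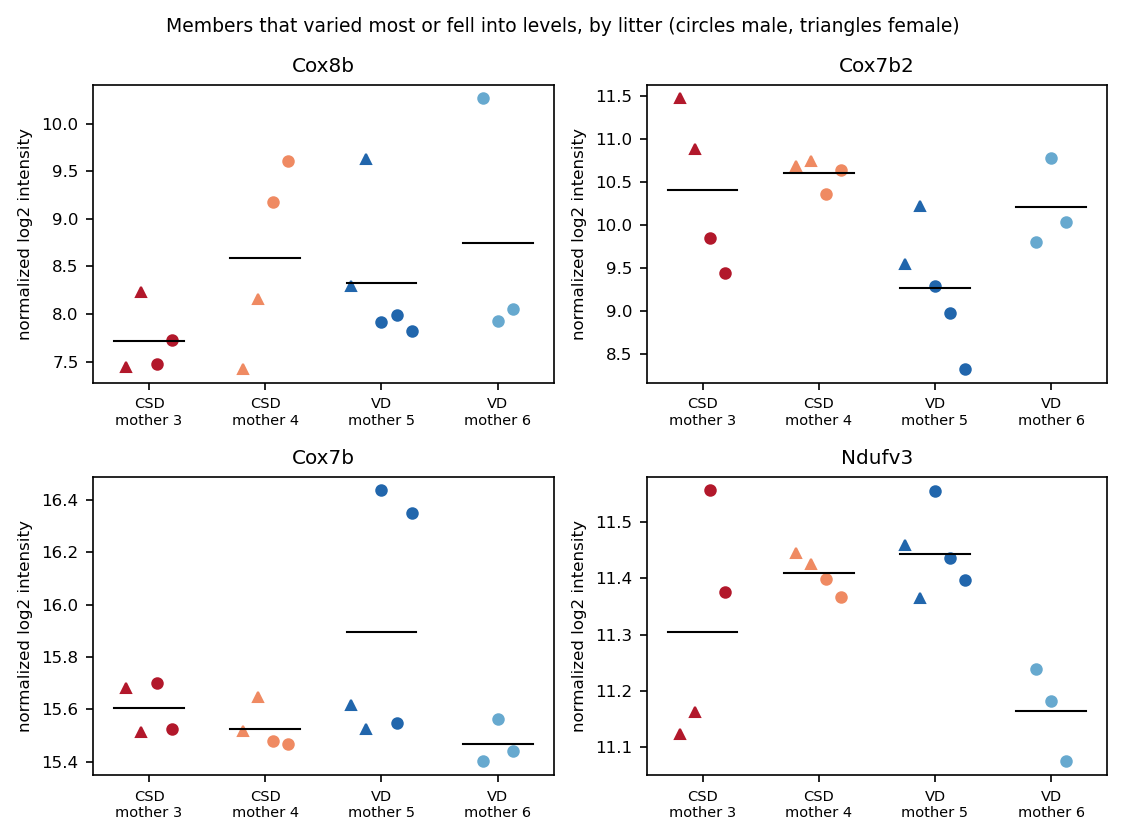
Normalized log2 intensity (vertical axes) of Cox8b, Cox7b2, Cox7b and Ndufv3 in each pup, by litter, with circles for males, triangles for females and bars for litter means. Cox8b is above 9 in 4 pups, Cox7b above 16 in 2 pups of mother 5, and Ndufv3 below 11.3 in 5 pups, 3 of them those of mother 6.

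Sex and litter gave the other comparisons of the design. Between females and males 0 of 95 members were called, against 22 genes of the array (0.0599%). At an unadjusted p under 0.05 there were 5 members (5.26%), against 6.47% of all genes. The smallest p was that of Cox5b, a peripheral complex IV subunit that was 0.12 higher in females (adjusted p = 0.686, limma). Of the 95 members, 72 were on the higher side in females, with a median difference of 0.0368 against -0.0027 over all genes. For the interaction of delivery with sex 0 members were called, against 1 gene (0.00272%). The 2 members with an unadjusted p under 0.05 were Sdhc and Ndufb2 (2.11%, against 4.71% of all genes). The VD group held 2 females, both of mother 5, so the interaction rests on few pups.

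Between the CSD litters of mothers 3 and 4, 0 members were called, against 32 genes (0.0872%). The 12 members with an unadjusted p under 0.05 were all higher in the litter of mother 3 (12.6% of members, 7.68% of all genes), among them Ndufa11 by 0.19, Cox7a2 by 0.14 and Cox5a by 0.20. Between the VD litters of mothers 5 and 6, 0 members were called, against 330 genes (0.899%), and 21 members had an unadjusted p under 0.05 (22.1% of members, 11.6% of all genes), 15 lower and 6 higher in the litter of mother 5. The smallest p-values were those of Cox7c (-0.21, adjusted p = 0.0615), a small subunit of complex IV, Ndufs8 (-0.21, adjusted p = 0.0711), an iron-sulphur subunit of complex I, Cox7b2 (-1.31, adjusted p = 0.0800) and Ndufv3 (0.32, adjusted p = 0.0816). The litter of mother 6 held males alone, so the comparison rests on a model with a common effect of sex.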

How the data were processed

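Total RNA of the colon was labelled with Cy3 and hybridised by the authors on 16 one-colour Agilent mouse arrays. The deposited scanner files hold spot intensities, used as mean signal and background median, and the deposited gene matrix holds log2 values that the authors corrected and quantile normalized with limma 3.38, per the labels. From the scanner files, intensities were background-corrected (limma 3.58.1, normexp, offset 50), put on the log2 scale, freed of control and outlier spots, quantile normalized and averaged per probe. Probes above the 5% quantile on at least 4 arrays were kept (56366 of 56605) and combined per gene name. This filter keeps probes that are not above background, and their values are averaged into the gene, so settings with detected or brightest probes were run as well. Where a probe lacked a spot on an array, deviations from each probe's own mean were averaged, because a plain average shifts the gene there, which concerned 217 genes. This was chosen after the data were seen, and the plain average was kept as an alternative.

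The 36711 genes were fitted in limma with terms for delivery mode and sex, and with the mother as a random effect (consensus correlation 0.0152). Mothers were compared within each mode in a model with mother and sex as fixed effects. P-values were adjusted by Benjamini-Hochberg over all genes tested, and a gene was called at an adjusted p under 0.05. On simulated data the delivery test recovered most of the changes put in, and in 1 of the 2 simulations the share of false calls was above the adjusted threshold. The changes put in were larger than the differences of all members but Cox7b2 and Cox6a2. The simulated fits were also given the litter correlation that was put in. The simulations therefore do not show how well differences as small as those of most members would be found. The members and lists were chosen with earlier results of these data known. Per complex or group, the 3 members with the smallest p were described where fewer than 3 were called, with the tissue isoforms, the 2 most and the 2 least variable members, and the called or, without calls, the 2 genes with the smallest p of each other list. Pups are the replicates, but littermates share a mother, and p-values rest on 2 litters per mode. The number of arrays, 16, sets the precision. Alternatives concerned background correction, normalization, filter, probes, the gene matrix, model terms, slides, pups and litters. Probes were not tested for binding to pseudogenes or paralogs. Promoters were read from a RefSeq table that holds 77 of the members. The value of 1 listed gene is not reported here.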

Additional observations from a re-analysis of the deposited data

Results flagged for a closer look

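Among 70 sets of 8 pups (the members described, by delivery mode), 4 held a pup far from the other 7, where chance gives about 1 in 20, or 3.5. Cox8c was 6.295 in CSD pup 9, next to 5.895 in the nearest pup, and was not well above background on any array. Ndufa8 was 13.25 in VD pup 7, next to 13.01, and without this pup its difference between delivery modes was 0.187 with an adjusted p of 0.0491 (limma), where without the litter of mother 5 it was 0.0563. Ndufs1 was 10.42 in CSD pup 9, next to 10.58. Sdha was 10.53 in CSD pup 1, next to 10.25, and without this pup its difference was 0.0498. Of the 4 Sdha probes, the one with 9.01 in that pup gave 7.77 to 8.11 in all other pups, and 2 others were also highest there, at 7.69 next to 7.52 and at 11.303 next to 11.285 in the nearest pup. The remaining probe gave 14.14 there and 13.92 to 14.34 elsewhere. One of the 3 Ndufa3 probes likewise gave 7.69 in CSD pup 1 and 6.71 to 7.0 in all other pups, while the other Ndufa3 probes showed no such gap.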

How the results depend on the processing

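No member was called for delivery mode under 18 settings of processing, model or slide, under 15 of 16 fits without 1 pup and under 3 of 4 fits without 1 litter. Litter means as samples, males alone, slide 2 alone and the replicate block described below called 0 of all genes. The lack of called members in those settings therefore adds little. The number called ran from 0 to 1 over the fits without 1 pup, the 1 being Ndufa8 without VD pup 7. Without the litter of mother 6, which leaves mother 5 as the single VD litter, 6 members were called, all higher in CSD: Cox7b2 by 1.15, Ndufa8 by 0.19, Cox7c by 0.13, Sdhc by 0.12, Uqcrfs1 by 0.11 and Uqcrc2 by 0.10, with 2300 genes called in all (6.27%). For sex, interaction and the CSD litters, 0 members were called in all 27 settings tried for each. For mother 5 against mother 6, 2 members were called with the brightest probe per gene (Cox7c and Ndufv3), 1 with slide in the model (Cox7b2), and 0 to 2 over the fits without 1 pup.

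The median difference of the members was 0.0621 with scanner-corrected intensities scaled by the 75th percentile, where the median of all genes was 0.0407, and 83 of 95 members were then on the higher side. Of the 95, 43 were so without the litter of mother 3, 44 on slide 2, 47 without the litter of mother 5, 48 in males alone and 50 without CSD pup 8. Without 1 pup the median difference of the members ran from 0.0035 to 0.0297 and without 1 litter from -0.0071 to 0.0342.

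The number of all genes called, 464 in the fit reported, was 242 with a normexp offset of 16, 176 and 169 with scanner-corrected intensities (quantile and 75th percentile), 170 in the deposited matrix, 999 without sex, 11 on slide 1, 0 on slide 2, 0 in males alone and 0 with litter means as samples. Without 1 pup it ran from 145 to 623, and without the litters of mothers 3, 4 and 5 it was 213, 139 and 193. The plain average of probes gave 460 genes and 0 members; this alternative and the averaging of deviations it replaces were both chosen after seeing the data. The cause of these changes was not tested.

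The title numbers 5 to 9 occur in both groups but do not mark pairs, as the deviations of same-numbered pups correlated between -0.0669 and 0.216. With this number as a replicate block, 0 genes and 0 members were called, with 4 members at an unadjusted p under 0.05.

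Of all 35 members described, 8 changed the sign of their difference without some pup, 19 without some litter and 12 under another setting. Of the 20 described by p, these changed the sign of their uncalled difference. Without the litter of mother 5, Sdhc was -0.0143, Uqcrfs1 -0.0048, Uqcrc2 -0.0084, Cox7b2 -0.1345, Atp5c1-ps -0.1032 and Atp5s -0.1801. Atp5c1-ps and Atp5s were -0.0401 and -0.0508 in males alone, -0.0572 and -0.0444 on slide 2 and -0.0087 and -0.0838 with the replicate block, and Atp5s was -0.0087 without the litter of mother 4. Sdhb was 0.0234 with the 75th percentile, 0.0019 on slide 1 and 0.0064 without the litter of mother 3, and it ran from -0.0542 to 0.0028 without 1 pup, positive without CSD pup 9. ND6 was higher in CSD in all 38 settings and called in 14.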
